A study of Rattus norvegicus with 8 samples.

Results

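The corticosteroid system of the hippocampus was described through 5 genes, taken by Ensembl ID from the 32623 genes of the count table: the receptors Nr3c1 (ENSRNOG00000014096) and Nr3c2 (ENSRNOG00000034007), the response genes Fkbp5 (ENSRNOG00000022523) and Sgk1 (ENSRNOG00000011815), and the enzyme gene Hsd11b1 (ENSRNOG00000005861). All 5 were present in the table and all 5 passed the filter on low counts. RNA sequencing was done on hippocampal tissue of 32-week-old rats of 2 strains, with 4 libraries each of spontaneously hypertensive rats (SHR) and of Wistar-Kyoto rats (WKY). SHR rats are inbred and become hypertensive without treatment, and WKY is the related strain commonly used as its normotensive control, so the comparison is between strains and not between treatments. Every rat, in both groups, was anaesthetised with sodium pentobarbital, and the hippocampus was then removed on ice. The labels give neither the sex of the rats nor whether each library is a different rat, so the spread behind the p-values is that of the libraries and may be technical.

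Corticosterone, the main glucocorticoid of the rat, acts in the brain through a pair of nuclear receptors. The mineralocorticoid receptor, encoded by Nr3c2, binds it with high affinity and is abundant in hippocampal neurons, and the glucocorticoid receptor, encoded by Nr3c1, binds it with lower affinity and is engaged when the hormone rises with stress or the daily rhythm. Both receptors bind the same DNA elements and raise transcription of genes such as Fkbp5, whose protein FKBP51 is a co-chaperone that lowers hormone binding of the glucocorticoid receptor, and Sgk1, a kinase that acts on ion channels and transporters. Hsd11b1 encodes an enzyme that regenerates active corticosterone from its inert keto form inside cells.

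The SHR libraries held 45048841 to 49560687 counts and the WKY libraries 53045139 to 53699673. Every WKY total lay above every SHR total, so any effect of depth left after scaling cannot be told apart from strain. Across all genes, WKY replicate 4 stood apart from its strain. Its log2 values correlated on average at 0.965 with WKY replicates 1 to 3 and at 0.970 with the SHR libraries. Its strain label could not be checked from the files, so each WKY mean rests on the label as given, and each strain difference below is also given without this library. The table holds Ensembl IDs without symbols, and 0 of them could be matched through the reference table, so only the 5 genes, whose names came with the choice of members, are named. For the same reason the hippocampal identity of the tissue, admixture of other cell types and the rest of the corticosteroid pathway were not tested. In bulk tissue, fewer cells of a type and less RNA per cell cannot be told apart.

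RefSeq lists start sites for Fkbp5, Sgk1 and Nr3c1 in the promoter table used here (build GRCr8, where the counts were made on rn6). The 250 bases before the listed start are shown for Fkbp5 and for 2 of the 3 Sgk1 starts. Any link of these windows to the level or spread of either gene was not tested. All 3 sequences are on the minus strand and read 5′ to 3′, with capitals marking the TATA box TATAAA and the GC box GGGCGG on either strand.
Fkbp5, chr20:6543556-6543805: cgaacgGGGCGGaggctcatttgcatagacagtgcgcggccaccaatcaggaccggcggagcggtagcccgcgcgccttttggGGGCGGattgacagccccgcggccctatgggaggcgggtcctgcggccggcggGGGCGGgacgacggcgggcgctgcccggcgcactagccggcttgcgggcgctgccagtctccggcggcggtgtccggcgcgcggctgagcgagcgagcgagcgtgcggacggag
Sgk1, chr1:24804832-24805081: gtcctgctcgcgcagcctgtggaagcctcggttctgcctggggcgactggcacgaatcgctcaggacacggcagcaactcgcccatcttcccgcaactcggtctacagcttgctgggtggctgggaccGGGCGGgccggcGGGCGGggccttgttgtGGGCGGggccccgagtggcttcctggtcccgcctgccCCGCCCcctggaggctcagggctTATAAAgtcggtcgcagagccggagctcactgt
Sgk1, chr1:24807232-24807481: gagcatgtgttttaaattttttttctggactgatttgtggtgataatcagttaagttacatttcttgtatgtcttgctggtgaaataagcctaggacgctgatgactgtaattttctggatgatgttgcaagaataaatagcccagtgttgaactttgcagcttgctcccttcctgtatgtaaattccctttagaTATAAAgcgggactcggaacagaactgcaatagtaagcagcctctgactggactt
The Fkbp5 window was 76.0% G and C and held 3 GC boxes and 0 TATA boxes. The first Sgk1 window shown was 69.6% G and C, with 4 GC boxes and 1 TATA box, and the second was 39.2% G and C, with 1 TATA box and 0 GC boxes. The remaining Sgk1 window, not shown, was 49.6% G and C, with 2 GC boxes and 0 TATA boxes. The median over all 33469 windows of this length was 51.2% G and C. TATAAA was in 12.9% of those windows and GGGCGG in 30.5%. The full element that both receptors bind, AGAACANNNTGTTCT, was in 0 of the 6 windows of Fkbp5, Sgk1 and Nr3c1, and so was its single arm AGAACA, 2 of which make up the full element. On either strand the full element was in 0.0120% of all windows and the arm in 17.5%, and its lack here says only that these letters are not in these windows. The deposited counts are per gene and sum over all starts.

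None of the 5 genes passed the test for a strain difference at an adjusted p under 0.05 (edgeR quasi-likelihood test, Benjamini-Hochberg adjusted over 16867 genes), where 0.0356% of all genes tested did. DESeq2 and limma-voom also called 0 of the 5, with 1.76% and 0.0296% of all genes called. Over all 8 libraries, in each of the 3 tools 1 of the 5, Hsd11b1, had an unadjusted p under 0.05, beside 12.1% of all genes in edgeR. That held in 8 of the 16 alternative fits. In those 8, 7.88% to 14% of all genes had an unadjusted p under 0.05, and in all 16 the share was 7.88% to 17.8%. The ranges of the strains overlapped for all 5 genes, and they did not overlap for 6.72% of all genes. Without WKY replicate 4 the count called was again 0 of 5, with 2.69% of all genes called, and the ranges still overlapped for all 5, where 17.2% of all genes were without overlap. Levels below are CPM, which are counts scaled to a common library size, here by the TMM method. They are not per length of transcript, so a level is compared between libraries and never between genes.

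**Figure D1:**
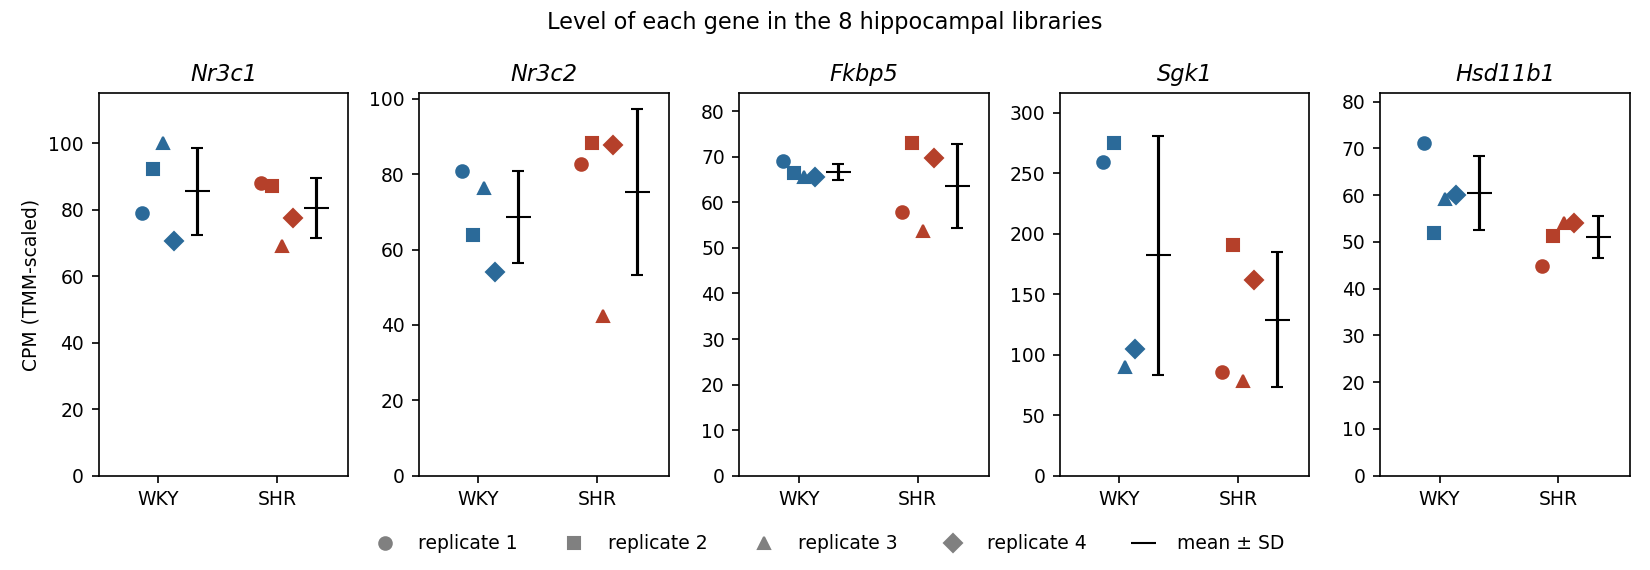
CPM of each of the 5 genes in the 4 WKY (blue) and 4 SHR (red) libraries, 1 symbol per replicate number, with the mean and SD of each strain as black bars and every vertical axis starting at 0. The strains overlap for every gene, Sgk1 spreads 3.50-fold over the 8 libraries, and Nr3c2 in SHR replicate 3 (42.5 CPM) lies below all other libraries.

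The receptors are described first. Nr3c1, the glucocorticoid receptor gene, was at 88.0, 87.3, 69.0 and 77.7 CPM in SHR replicates 1 to 4. In WKY replicates 1 to 4 it was at 79.2, 92.4, 100.02 and 70.7 CPM. WKY replicate 3 was the highest of the 8, and SHR replicate 3 and WKY replicate 4 were the lowest, so both strains reached the bottom of the range. The SHR libraries averaged 80.5 ± 8.97 CPM and the WKY libraries 85.6 ± 13.1 CPM (SD, n = 4 each). This is a log2 fold change of -0.089 ± 0.12 (SE) for SHR over WKY, with an adjusted p of 0.819 in edgeR. Its 95% interval ran from 0.781-fold to 1.13-fold, so a halving or a doubling lay outside it. Without WKY replicate 4 the WKY mean was 90.5 ± 10.5 CPM (SD, n = 3) and the estimate was -0.17 ± 0.11 (adjusted p of 0.480 in edgeR). Without WKY replicate 3 it was -0.0013 ± 0.12 (adjusted p of 0.998 in edgeR), and without SHR replicate 3 it was -0.010 ± 0.12 (adjusted p of 0.980). Without WKY replicate 2 it was -0.046 ± 0.14 (adjusted p of 0.968 in edgeR). The estimate thus moved by over 1.5 times with each of these libraries.

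Nr3c2, the mineralocorticoid receptor gene, was at 82.6, 88.2, 42.5 and 87.8 CPM in SHR replicates 1 to 4. In WKY replicates 1 to 4 it was at 80.9, 63.9, 76.3 and 54.0 CPM. SHR replicate 3 was the lowest of all 8 libraries, while the other SHR libraries lay above every WKY library. The SHR libraries averaged 75.3 ± 22.0 CPM and the WKY libraries 68.8 ± 12.2 CPM (SD, n = 4 each), a log2 fold change of 0.13 ± 0.22 (SE) with an adjusted p of 0.859 in edgeR. The 95% interval was 0.783-fold to 1.53-fold. Without SHR replicate 3 the SHR mean was 86.2 ± 3.15 CPM (SD, n = 3) and the estimate was 0.34 ± 0.13, a 1.26-fold difference (edgeR, unadjusted p = 0.0276, adjusted p = 0.299). In that fit 14% of all genes had an unadjusted p under 0.05, and 0.0352% were called at an adjusted p under 0.05. Leaving out that single library raised the estimate by more than 1.5 times and still left it short of the adjusted threshold. Without WKY replicate 4 the estimate was 0.030 ± 0.22 (adjusted p of 0.968 in edgeR). Of 16 alternative fits, limma-voom without WKY replicate 4 was the only one with Nr3c2 lower in SHR, at -0.027 (adjusted p = 0.972).

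The balance between the receptors was measured as the ratio of Nr3c2 counts to Nr3c1 counts within a library, in which library scaling cancels. The ratio was 0.939, 1.01, 0.615 and 1.13 in SHR replicates 1 to 4. It was 1.02, 0.691, 0.763 and 0.763 in WKY replicates 1 to 4. In SHR 3 of 4 libraries lay above WKY replicates 2, 3 and 4, while SHR replicate 3 lay below all WKY libraries and WKY replicate 1 lay among the high SHR ones. The log2 ratio averaged -0.15 ± 0.38 over the SHR libraries and -0.32 ± 0.24 over the WKY libraries (SD, n = 4 each). The difference was 0.17 (exact permutation test over 70 assignments, two-sided p = 0.514, where 0.0286 is the smallest this design allows). The difference was 0.15 without WKY replicate 4 (exact permutation test over 35 assignments, two-sided p = 0.629). Leaving out each library in turn gave differences from 0.062 without SHR replicate 4 (exact permutation test, p = 0.857) to 0.35 without SHR replicate 3 (exact permutation test, p = 0.114). It was 0.10 without WKY replicate 2 (exact permutation test, p = 0.743) and 0.29 without WKY replicate 1 (exact permutation test, p = 0.286). Because transcript lengths were not used, a ratio near 1 does not mean equal numbers of receptor transcripts.

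**Figure D2:**
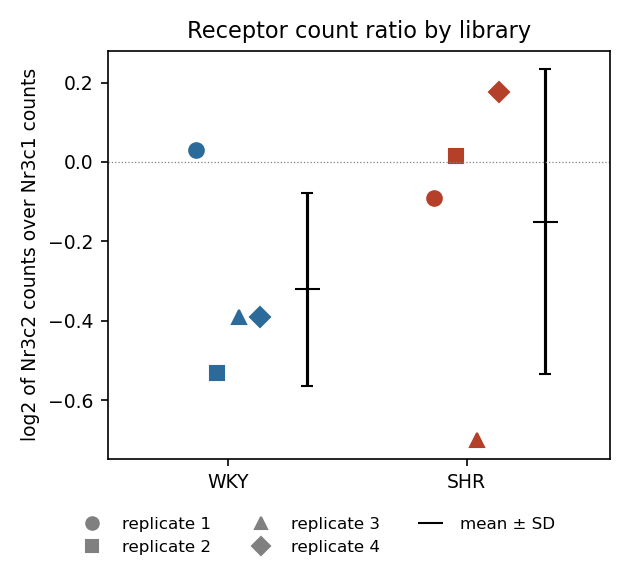
Log2 of the Nr3c2 to Nr3c1 count ratio in each library by strain, with the replicate number as the symbol and the mean and SD as black bars. SHR replicate 3 is the lowest value (-0.70) and SHR replicate 4 the highest (0.18), and the WKY libraries lie between them.

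Of the response genes, Fkbp5, which encodes the co-chaperone, was the steadier. It was at 57.9, 72.9, 53.6 and 69.8 CPM in SHR replicates 1 to 4. In WKY replicates 1 to 4 it was at 69.1, 66.4, 65.6 and 65.5 CPM. The WKY libraries lay within a narrow band inside the SHR range, and WKY replicate 4 was not apart from them. The SHR libraries averaged 63.6 ± 9.26 CPM and the WKY libraries 66.6 ± 1.70 CPM (SD, n = 4 each), a coefficient of variation of 14.6% against 2.54%. Whether this difference in spread exceeds sampling of 4 libraries was not tested. Fkbp5 thus had a log2 fold change of -0.068 ± 0.10 (SE), with an adjusted p of 0.838 in edgeR and a 95% interval of 0.816-fold to 1.11-fold. Without SHR replicate 3 it was 0.016 ± 0.087 (adjusted p of 0.952), so its sign turned with that library. Without WKY replicate 4 it was -0.077 ± 0.11 (adjusted p of 0.793).

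The level of Sgk1, the kinase gene, spread 3.50-fold over the 8 libraries, with low and high libraries in both strains. It was at 86.0, 190.3, 78.5 and 161 CPM in SHR replicates 1 to 4. In WKY replicates 1 to 4 it was at 259, 275, 89.9 and 104 CPM. Each strain had 2 libraries near or below 104 CPM and 2 at 161 CPM or more. The low libraries of WKY lay above the low libraries of SHR, and the high libraries of WKY lay above the high libraries of SHR. The gap was smaller between the low libraries. The SHR libraries averaged 129 ± 55.4 CPM and the WKY libraries 182 ± 98.4 CPM (SD, n = 4 each). The log2 fold change was -0.50 ± 0.41 (SE), or 0.709-fold, with an adjusted p of 0.666 in edgeR. The 95% interval was 0.380-fold to 1.32-fold, so at this spread a halving in SHR could not be told from no difference. Without WKY replicate 4, one of the low WKY libraries, the estimate was -0.69 ± 0.39 (adjusted p of 0.417 in edgeR), and without WKY replicate 2, the highest, it was -0.22 ± 0.42 (adjusted p of 0.942). Without SHR replicate 3 it was -0.31 ± 0.42 (adjusted p of 0.782), and without WKY replicate 1 it was -0.27 ± 0.43 (adjusted p of 0.872).

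As a description, the spread of Sgk1 within strains was 0.75 (pooled SD on the log2 scale), larger than that of 99.5% of the 5834 genes whose average log2 CPM was 5 or more, with a median of 0.14. The spread of Nr3c2 was 0.41, larger than that of 97.2% of these genes. Nr3c1 at 0.20, Hsd11b1 at 0.16 and Fkbp5 at 0.15 were above 77.4%, 63.8% and 59.8% of them. These spreads hold WKY replicate 4 and SHR replicate 3.

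Hsd11b1, the gene of the corticosterone-regenerating enzyme, had the lowest unadjusted p of the 5 and missed the adjusted threshold. It was at 44.7, 51.3, 54.0 and 54.1 CPM in SHR replicates 1 to 4. In WKY replicates 1 to 4 it was at 71.1, 51.9, 59.1 and 60.1 CPM. All WKY libraries but replicate 2 lay above every SHR library, and WKY replicate 4 was close to WKY replicate 3. The SHR libraries averaged 51.0 ± 4.40 CPM and the WKY libraries 60.5 ± 7.92 CPM (SD, n = 4 each). The log2 fold change was -0.25 ± 0.11 (SE), or 0.843-fold (edgeR, unadjusted p = 0.0422, adjusted p = 0.394). Lower levels in SHR at an unadjusted p under 0.05 were found for 7.24% of all genes. The 95% interval, which is not adjusted for the number of genes, was 0.716-fold to 0.993-fold. Without WKY replicate 4 the estimate was -0.25 ± 0.12 (edgeR, unadjusted p = 0.0609, adjusted p = 0.315), and the unadjusted p was 0.0559 in DESeq2 and 0.0712 in limma-voom. Without WKY replicate 1, the highest library, it was -0.16 ± 0.098 (edgeR, unadjusted p = 0.142, adjusted p = 0.663). Hsd11b1 was below WKY in SHR in all 16 alternative fits, which reuse the same libraries, and its adjusted p ranged from 0.309 to 0.663 in them.

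**Figure D3:**
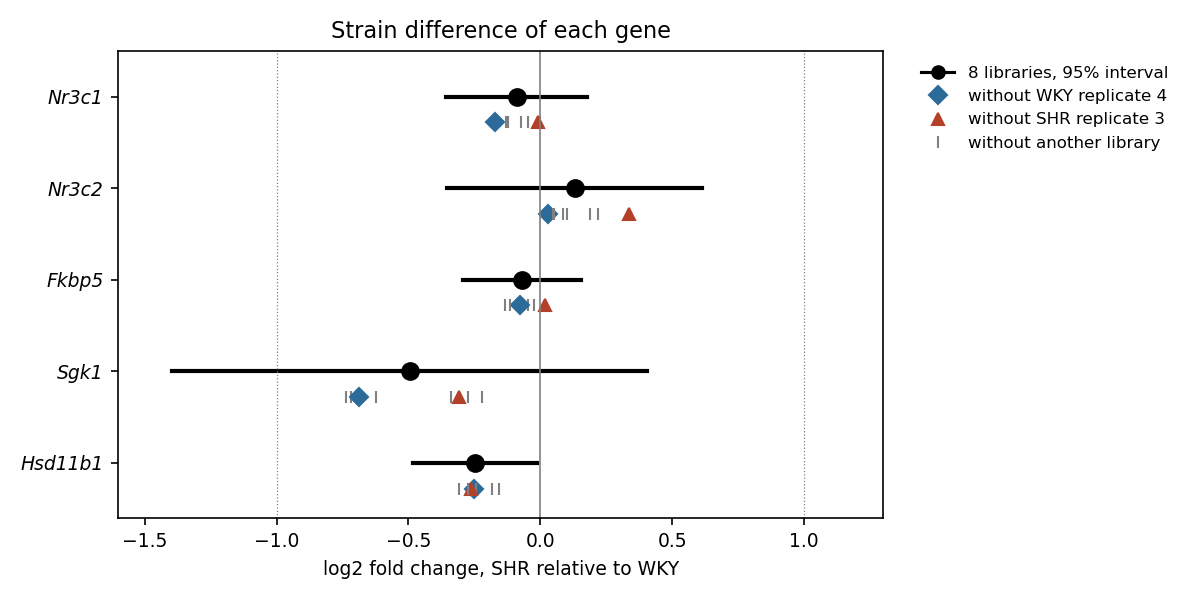
Log2 fold change of SHR over WKY for each gene, with the estimate over 8 libraries and its 95% interval in black and, beneath it, the estimates with 1 library left out; dotted lines mark a halving and a doubling. The interval of Sgk1 (-1.40 to 0.41) is the widest and the only one to pass a dotted line, and leaving out SHR replicate 3 moves Nr3c2 from 0.13 to 0.34.

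The libraries were then compared across the genes. SHR replicate 3 was the lowest SHR library for Nr3c1, Nr3c2, Fkbp5 and Sgk1, and not for Hsd11b1. It was the lowest SHR library for 30.7% of all genes tested. WKY replicate 4 was the lowest WKY library for Nr3c1, Nr3c2 and Fkbp5, as it was for 31.2% of all genes. SHR replicate 3 and WKY replicate 4 were the 2 lowest of all 8 libraries for both receptors, a pattern held by 7.50% of all genes, while they were the 2 highest for 7.55%. These libraries also had the highest total counts of their strains, 49560687 and 53699673, and the lowest mean correlation with the other libraries of their strains, 0.974 and 0.965. The part of these library differences in the receptor values was not tested.

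**Figure D4:**
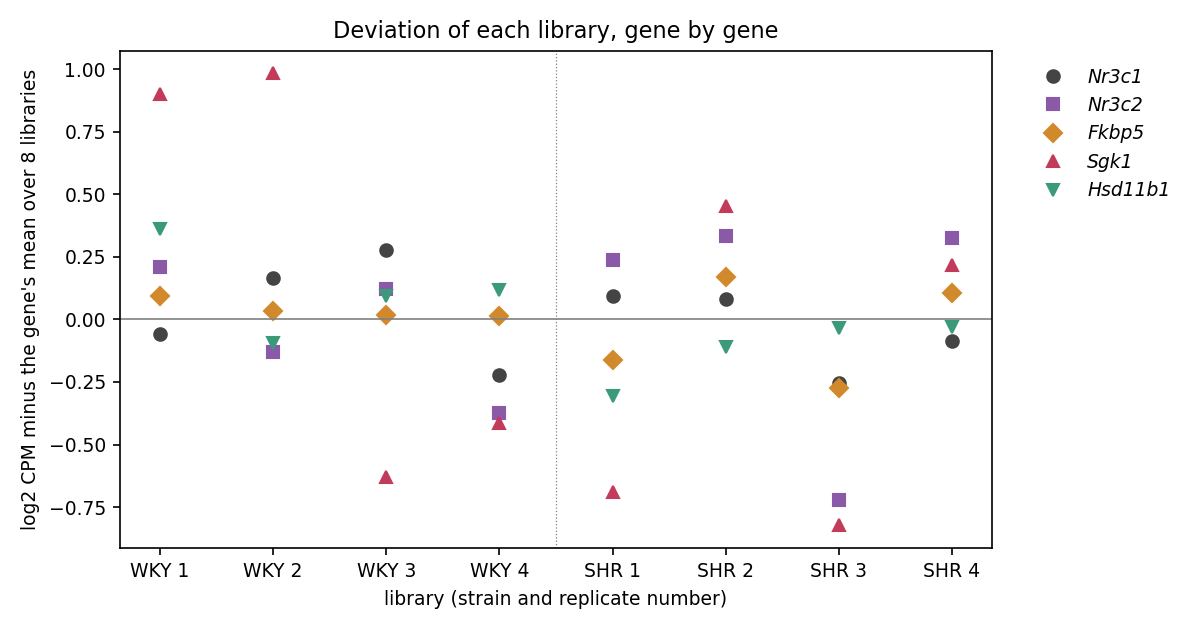
Log2 CPM of each gene in each library minus the mean of that gene over the 8 libraries, with 1 symbol and colour per gene and a dotted line between the strains. Both receptors are low in WKY replicate 4 and SHR replicate 3, and Sgk1 is high in WKY replicates 1 and 2 and in SHR replicates 2 and 4.

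The likeness of the patterns was described by the correlation of log2 CPM over the 8 libraries, for the 10 pairs of these genes. Fkbp5 and Sgk1 were the most alike pair, with Pearson's r of 0.71 and Spearman's rho of 0.76. Among the SHR libraries both were highest in replicate 2, followed by replicates 4, 1 and 3. In WKY the high Sgk1 libraries, replicates 1 and 2, also had the highest Fkbp5 values, but these exceeded the other WKY values by only a few CPM. Without SHR replicates 1 and 3, the libraries farthest from the median of Fkbp5, r was 0.44 over 6 libraries. Nr3c2 was most like Fkbp5, with r of 0.67 and rho of 0.74, and r was 0.23 without SHR replicate 3 and WKY replicate 4. Nr3c1 was most like Nr3c2, with r of 0.58 and rho of 0.31, and r was 0.36 without SHR replicate 3 and WKY replicate 3. WKY replicate 4, which with SHR replicate 3 was lowest for both receptors, was still included there. Apart from SHR replicate 3 and WKY replicate 4, the receptors did not rise together. Of those other libraries, WKY replicates 2 and 3 had the highest Nr3c1 and the lowest Nr3c2. The r without SHR replicate 3 and WKY replicate 4 was not computed for this pair. For these 3 pairs r was lower without the 2 libraries left out. Those libraries were the farthest from the median of the first-named gene alone, so their removal also narrows the range of that gene. The value of r did not move toward 0 for every pair: that of Nr3c1 and Sgk1 went from 0.20 to 0.33 and that of Nr3c1 and Hsd11b1 from -0.24 to -0.60. The highest r of Hsd11b1 with another of the genes was 0.35, with Fkbp5, and rho for that pair was 0.071. The values of a library share its depth and scaling.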

How the data were processed

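The raw read counts per gene that the authors deposited were analysed for 4 SHR and 4 WKY hippocampal libraries, grouped by sample title. The submitters' processing notes name cutadapt 1.9, HISAT2 2.0.4, StringTie 1.3.4d and build rn6. The strand setting and annotation release are not given there, so reads of overlapping or antisense genes cannot be told apart. Each single-library table equalled its matrix column, although per the file headers WKY replicates 3 and 4 are numbered 5 and 6 and SHR replicates 3 and 4 are numbered 4 and 6.

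The counts were tested over the whole table with edgeR 4.0.16 in R 4.3.3 (quasi-likelihood F test, TMM scaling, default filterByExpr, strain as the only term), with Benjamini-Hochberg adjustment of two-sided p-values. The SE is the log2 fold change over the square root of F, and the 95% interval uses the t distribution at the degrees of freedom of the fit. Log2 CPM carried a prior count of 2. The receptor ratio was tested by exact permutation over libraries. Alternatives were RLE scaling, no filter, a filter of 1 CPM in 4 libraries, limma-voom (limma 3.58.1), DESeq2 1.42.0, a block for the replicate number and leaving out each library. DESeq2 and limma-voom without WKY replicate 4 were chosen after seeing the data. The edgeR script was tested on simulated data.

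The members and lists were chosen with earlier results of these data known. The named genes were to be the 5 members, the called, most abundant and most changed genes of 7 pathway lists, and the genes most like each member. These lists and 11 marker lists could not be matched to IDs, so 0 were tested, and likeness was described among the members. RefSeq symbols matched all 5 members, and 3 of them had promoter entries.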

Additional observations from a re-analysis of the deposited data

Results flagged for a closer look

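Nr3c2 in SHR replicate 3, at 42.5 CPM, lay far from the other SHR libraries (82.6 to 88.2 CPM). The gap to the nearest of them was 0.877 of the range of the 4 libraries, above the critical value of Dixon's test. Of 12 sets of 4 libraries examined in this way (5 genes and the receptor ratio in each strain), 1 stood out in this way, and chance would set apart about 1 in 20. SHR replicate 3 held 2172 counts of Nr3c2 against 3595 to 4218 in the other SHR libraries, although its total was the highest of the strain.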

How the results depend on the processing

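In none of the 90 alternative fits and tests did a strain difference of the 5 genes or of the receptor ratio pass its threshold, but the exact sign-flip permutation test of the ratio by replicate number could not go below p = 0.125. Nr3c1, Sgk1, Hsd11b1 and the ratio kept their direction in all of theirs. The sign turned for Fkbp5 without SHR replicate 3 (0.016) and for Nr3c2 in limma-voom without WKY replicate 4 (-0.027); the cause was not tested. With 1 library left out, log2 fold changes ranged from -0.17 to -0.0013 for Nr3c1, 0.030 to 0.34 for Nr3c2, -0.13 to 0.016 for Fkbp5, -0.74 to -0.22 for Sgk1 and -0.31 to -0.16 for Hsd11b1, and the ratio difference from 0.062 to 0.35. By the numbers in the titles, the deviations of same-numbered libraries from their strain means correlated at -0.093, -0.0034, -0.16 and -0.15. Those of differently numbered libraries correlated at -0.063 to 0.147. Whether the libraries were paired was not tested. With the replicate number as a block the log2 fold changes were -0.082, 0.094, -0.079, -0.42 and -0.24, in the same order of genes (edgeR, adjusted p from 0.656 to 0.946; unadjusted p = 0.0965 for Hsd11b1), and the number of genes called over the whole table was 1 in place of 6. Over the whole table DESeq2 called 333 genes, no filter 3, the stricter filter 4, and leaving out WKY replicate 4 gave 458. The other 7 libraries gave 1 to 6 when left out. The tests of the pathway lists under these settings were not run. Each of the 5 genes held at least 1948 counts in every library; the limit set by depth was not tested.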

Other observations

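Over the 8 libraries, 90 of the 16866 other genes tested had a correlation of at least 0.9 with Nr3c1 and 82 with Nr3c2, where the median gene had 30. Fkbp5 had 14, Sgk1 14 and Hsd11b1 18. At a correlation of at most -0.9 there were 120 genes for Nr3c1, 56 for Nr3c2, 28 for Fkbp5, 7 for Sgk1 and 15 for Hsd11b1, where the median gene had 26. Sgk1, the most variable of the 5, and Hsd11b1 were thus below the median gene in both counts. Fkbp5 was below it only at a correlation of at least 0.9, and both receptors were above it in both counts. The median is over all genes tested, whatever their level. The counts without SHR replicate 3 and WKY replicate 4, the lowest for both receptors, were not examined. These counts are descriptions over 8 libraries that share depth and scaling, and the genes counted have no symbols in the files.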
